A study of Homo sapiens with 2 samples.

Results

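The genes described here encode the CDK11 kinases (CDK11A and CDK11B), their partners cyclin L1 and cyclin L2 (CCNL1 and CCNL2), the kinases CDK12 and CDK13, and their partner cyclin K (CCNK). These 7 genes were taken from the 54261 gene symbols listed in the count table. They were selected by name around CDK11B, for which the study had listed an altered alternative 3′ splice site in these same libraries. The study reports this event among those it also checked by RT-PCR. The set was thus not drawn independently of the data. The cells were RKO, a human colorectal cancer cell line, transfected with 1 of 2 siRNAs, a negative control (si-NC) or one directed at SRSF2 (si-SRSF2). SRSF2 is a serine/arginine-rich (SR) protein that binds exonic RNA and helps the splicing machinery to define exons. Each group was 1 library of RNA from transfected cells, 1 siRNA was used against SRSF2, and both groups shared the same parental line. No difference between the groups therefore has a replicate check, and no p-value is given.

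CDK11, CDK12 and CDK13 belong to the cyclin-dependent kinases that act on transcription and RNA processing rather than on cell cycle transitions, although a shorter CDK11 product is known for a role in mitosis. CDK11 pairs with the L-type cyclins, is found with splicing factors and phosphorylates the spliceosome subunit SF3B1. CDK12 and CDK13 pair with cyclin K and phosphorylate the tail of the largest RNA polymerase II subunit during elongation, and loss of CDK12 is known to lower the expression of long DNA repair genes.

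To show the region around the site for which CDK11B was selected, the annotated exon was read from the GRCh38 genome with GENCODE release 44. CDK11B (ENSG00000248333.9) lies on chromosome 1 from 1635225 to 1659012 on the minus strand, and CDK11A (ENSG00000008128.23) lies near it on the same strand from 1702379 to 1724357. Both genes hold an exon of 137 bases with an annotated alternative acceptor upstream of it. In CDK11B the alternative acceptor adds 42 bases (chr1:1645263-1645304), which 3 annotated transcripts carry and 3 lack. In CDK11A it adds 27 bases (chr1:1712401-1712427), which 2 annotated transcripts carry and 7 lack. Each sequence below gives 15 intron bases, then the added segment in capitals, then the first 20 bases of the common exon, 5′ to 3′ on the transcribed strand.
CDK11A, chr1:1712381-1712442: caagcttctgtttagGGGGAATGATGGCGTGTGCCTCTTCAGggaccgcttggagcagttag
CDK11B, chr1:1645243-1645319: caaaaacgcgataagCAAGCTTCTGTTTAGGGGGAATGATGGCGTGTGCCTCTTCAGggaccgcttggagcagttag

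The 42 bases before the common exon had 0 mismatches between CDK11A and CDK11B, and the 137-base exon had 1. An AG dinucleotide, the last bases of nearly all introns, stood before each of the 3 possible exon starts in both genes, that is 0, 27 and 42 bases upstream. The upstream exon start of the CDK11B region that the study listed lies at the offset that GENCODE annotates in CDK11A, not at the one it annotates in CDK11B. The 42 bases in capitals for CDK11B thus begin at another acceptor, and the listed one lies 27 bases upstream of the common exon. The added bases were a multiple of 3 in both genes, and the segment lay wholly inside the coding part of 3 of the 3 CDK11B transcripts and 1 of the 2 CDK11A transcripts that carry it. Reads across these junctions were not used here, so no inclusion level of this segment is given.

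The motif known for SRSF2, spelled out as CCNG with either C or G allowed at its first and its second position, was searched on the transcribed strand with overlapping matches counted. It occurred 4 times in the 42 bases and 3 times in the last 27 of them. Such short motifs are frequent. Of 156818 starts of internal exons, each read over its first 42 bases, 85.9% held at least 1 match and 29.0% held 4 or more. The median was 2. The match is a description of the letters and says nothing about binding.

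The siRNA sense strands are shown because the knockdown rests on them, with the 7 bases that pair with the seed of the guide strand in capitals.
siNC: uucuucgaacgUGUCACGutt
si-SRSF2: uccaaauccagGUCGCGAutt

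The full 19-base target of si-SRSF2 occurred 1 time in the canonical transcript of SRSF2 and 0 times in the canonical transcripts of the 7 genes. Its seed site occurred 0 times in each of the 7 transcripts as well, and the same held for the control siRNA. Only canonical transcripts were searched. How often these sites occur in transcripts of other genes was not counted, so the absence shows nothing particular to the 7 genes.

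The count table held 19931360 counts in si-NC on 19882 detected genes and 14512802 in si-SRSF2 on 19467. The 20 most abundant genes took 8.41% and 8.95% of the counts, and mitochondrial genes took 4.45% and 4.82%. Counts were scaled to a common library size and expressed as CPM, and the log2 ratio of si-SRSF2 over si-NC was taken after adding 0.5 CPM. The 95% Clopper-Pearson intervals cover counting error only. SRSF2, the targeted gene, had 1964 counts in si-NC against 713 in si-SRSF2, a log2 ratio of -0.997 (95% interval -1.13 to -0.88), which left 49.9% of the control level. Of the epithelial markers, KRT8 had 547 and 618 counts, KRT18 632 and 477, and EPCAM 179 and 147, while CDH1 (10 and 6) and KRT19 (1 and 1) were near 0. After scaling, the log2 ratios were 0.62 for KRT8 (95% interval 0.47 to 0.80), 0.05 for KRT18 (-0.12 to 0.23) and 0.16 for EPCAM (-0.15 to 0.50). The summed epithelial markers came to 68.7 CPM in si-NC against 86.1 CPM in si-SRSF2. The 4 leukocyte markers summed to 0.151 and 0.0689 CPM, the 3 endothelial markers to 0.201 and 0.138 CPM and the 4 fibroblast markers to 1.15 and 1.58 CPM, with CD3E, PECAM1 and DCN at 0 counts in both libraries. In bulk RNA, fewer cells expressing a gene and less RNA per cell cannot be told apart.

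Of the 7 genes, CDK11A, CDK11B, CCNL2 and CDK13 were lower in si-SRSF2 than in si-NC, and CCNL1, CDK12 and CCNK were higher. All 7 passed the filter of a mean of at least 1 CPM, which left 12620 genes for comparison. None of the 7 differed by 1.5-fold or more, a size that 4.18% of all tested genes reached upwards (527 genes) and 3.52% downwards (444 genes). The interval lay below 0 for 4 of the 7, against 26.7% of all tested genes (3366 genes), and above 0 for 2 of the 7, against 21.0% (2646 genes). The median log2 ratio of the 7 genes was -0.26, and that of all tested genes was -0.02. Since the interval narrows with the count, each gene is also set below beside the tested genes whose mean CPM was within 1.5-fold of its own.

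**Figure D1:**
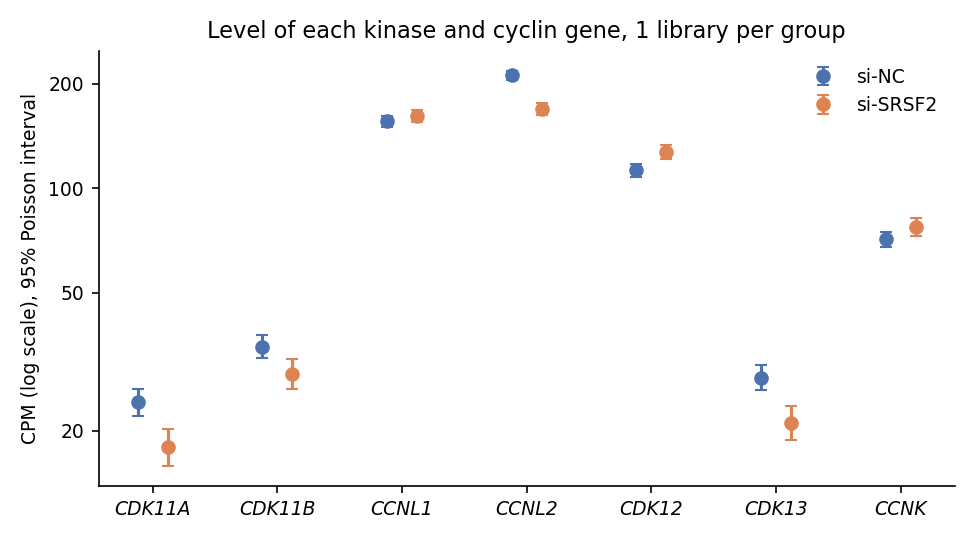
Level of the 7 genes in CPM on a log axis, with 1 point per library (blue si-NC, orange si-SRSF2) and bars giving the 95% Poisson counting interval. The si-SRSF2 point lies below the si-NC point for CDK11A, CDK11B, CCNL2 and CDK13 and above it for CCNL1, CDK12 and CCNK.

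Of the CDK11 kinases, CDK11A had 482 counts in si-NC against 261 in si-SRSF2, or 24.2 and 18.0 CPM. The level in si-SRSF2 was 74.4% of that in si-NC. The log2 ratio was -0.42 (95% interval -0.65 to -0.21), and 7.64% of the 2303 genes of like level had a lower ratio. CDK11B had 697 and 424 counts, or 35.0 and 29.2 CPM, which left 83.5% of the control level. Its log2 ratio was -0.26 (95% interval -0.44 to -0.08), and 17.4% of the 2778 genes of like level had a lower one. Both CDK11 genes were thus lower in the library with less SRSF2 by more than counting error, and both ratios lay between the 5th and the 95th percentile of genes of like level. Among those genes of like level, the interval lay below 0 for 26.2% around CDK11A and for 28.0% around CDK11B.

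The ratios of the CDK11 genes could not be separated from each other at this depth. The difference, CDK11A minus CDK11B, was -0.17 (95% interval -0.45 to 0.12) on the log2 scale. CDK11A took 40.9% of the counts of both genes in si-NC (95% Clopper-Pearson interval 38.1 to 43.8) and 38.1% in si-SRSF2 (34.5 to 41.9). The sum of both genes, which does not depend on how reads were split between them, was 1179 counts in si-NC against 685 in si-SRSF2, a log2 ratio of -0.32 (95% interval -0.46 to -0.19).

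The split itself rests on few bases. The coding sequences of CDK11A (2340 bases) and CDK11B (2346 bases) aligned with 26 mismatches and 98.9% identity, with a longest identical run of 607 bases. The window of 60 coding bases with most mismatches is shown because reads over it can be told apart, with the differing bases in capitals.
CDK11A: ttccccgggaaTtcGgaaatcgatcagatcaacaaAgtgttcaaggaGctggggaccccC
CDK11B: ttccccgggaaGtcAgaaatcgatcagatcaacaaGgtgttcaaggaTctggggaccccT

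These windows begin at coding base 1867 of CDK11A and 1873 of CDK11B and hold 5 mismatches. Of all 150-base windows of the canonical transcript, 1147 of 2835 in CDK11A (40.5%) and 1147 of 2843 in CDK11B (40.3%) occurred unchanged in the other gene. The run length was 150 bases, and cleaned reads can be shorter. In the genome, 64.3% of the exonic 50-base windows of CDK11A and 63.9% of those of CDK11B occurred elsewhere on the primary chromosomes. How the counting treated reads that align to both genes is not given in the sources used here, so the separate values of CDK11A and CDK11B are uncertain. CDK11A also shares 2448 exonic bases on the same strand with the annotated long noncoding RNA ENSG00000268575, which the count table does not list by that name. MMP23B, a matrix metalloproteinase gene on the opposite strand, shares 39 exonic bases with CDK11B and had 1 count in si-NC against 0 in si-SRSF2.

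The neighbours of the CDK11 genes, SLC35E2 and SLC35E2B, were looked at after the values were seen. SLC35E2 had 234 and 150 counts with a log2 ratio of -0.18 (95% interval -0.49 to 0.12). SLC35E2B had 1336 and 796 counts with a log2 ratio of -0.29 (95% interval -0.42 to -0.16). Among the 2778 tested genes with a level within 1.5-fold of that of CDK11B, the 3 with the nearest log2 ratio were ANKRD18A (756 and 460 counts, -0.26), ALG8 (1040 and 633 counts, -0.26) and RPL6P10 (659 and 401 counts, -0.25). Likeness here is the difference between 2 ratios, each from the same 2 libraries.

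The L-type cyclins, the regulatory partners of CDK11, differed from each other. CCNL1 had 3102 counts in si-NC against 2341 in si-SRSF2, or 155.6 and 161.3 CPM. Its log2 ratio was 0.05 (95% interval -0.03 to 0.13), so a difference was not detectable at this depth. CCNL2 had 4217 and 2448 counts, or 211.6 and 168.7 CPM, and 79.7% of the control level was left. The log2 ratio of CCNL2 was -0.33 (95% interval -0.40 to -0.25), and 5.58% of its 1291 genes of like level had a lower one. Among these genes the interval lay below 0 for 39.1%. CCNL1 stood above 67.8% of its 1608 genes of like level. The difference, CCNL1 minus CCNL2, was 0.38 (95% interval 0.27 to 0.49) on the log2 scale.

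The share of CCNL1 in the counts of both cyclins was 42.4% in si-NC (95% Clopper-Pearson interval 41.2 to 43.5) and 48.9% in si-SRSF2 (47.5 to 50.3). This share does not depend on the scaling between libraries, and the intervals did not overlap. The sum of both cyclins had a log2 ratio of -0.15 (95% interval -0.21 to -0.10). Their coding sequences had 69.7% identity, and 0 of the 150-base windows of either transcript occurred in another gene, so the reads of CCNL1 and CCNL2 can be told apart. CCNL1 (ENSG00000163660.12) lies on chromosome 3 from 157146508 to 157160760 and CCNL2 (ENSG00000221978.13) on chromosome 1 from 1385711 to 1399335, both on the minus strand. An annotated Y RNA on the opposite strand shares 93 exonic bases with CCNL1 and is not listed in the table by that name.

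Both cyclin L genes are known for transcripts that keep introns or carry early stop codons. GENCODE annotates 6 transcripts of CCNL1 as targets of nonsense-mediated decay and 16 with a retained intron, among 26 in all, and 4 and 9 among 19 for CCNL2. The CDK11A annotation holds 2 and 12 among 23, CDK11B 2 and 0 among 9, CDK12 1 and 3 among 9, CDK13 0 and 6 among 23, and CCNK 0 and 3 among 9. Of the 10435 tested protein-coding genes, 49.6% had at least 1 transcript of the first kind and 62.8% at least 1 of the second. Gene-level counts do not separate these transcripts from the coding ones.

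The elongation kinases CDK12 and CDK13 differed in opposite directions. CDK12 (ENSG00000167258.16, chromosome 17, 39461486 to 39567559, plus strand) had 2242 counts in si-NC against 1844 in si-SRSF2, or 112.5 and 127.1 CPM, 112.9% of the control level. Its log2 ratio was 0.17 (95% interval 0.09 to 0.27), above 85.3% of its 2080 genes of like level, of which 25.2% had an interval above 0. CDK13 (ENSG00000065883.18, chromosome 7, 39950121 to 40099580, plus strand) had 568 and 306 counts, or 28.5 and 21.1 CPM, 74.0% of the control level. Its log2 ratio was -0.43 (95% interval -0.64 to -0.23), the lowest of the 7, and 6.34% of its 2506 genes of like level lay lower. Of all those genes of like level, 26.8% had an interval below 0.

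The difference, CDK12 minus CDK13, was 0.61 (95% interval 0.39 to 0.83) on the log2 scale, the largest among the 5 pairs compared. CDK12 took 79.8% of the counts of both kinases in si-NC (95% Clopper-Pearson interval 78.3 to 81.3) and 85.8% in si-SRSF2 (84.2 to 87.2), and the intervals did not overlap. The sum of both kinases was 2810 counts in si-NC against 2150 in si-SRSF2, with a log2 ratio of 0.07 (95% interval -0.01 to 0.15), so the sum did not differ by more than counting error. Their coding sequences had 70.8% identity, and no 150-base window of either transcript occurred in another gene. The genes annotated as overlapping them, RNU6-233P for CDK12 and ENSG00000289269 for CDK13, share 0 exonic bases with them.

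**Figure D2:**
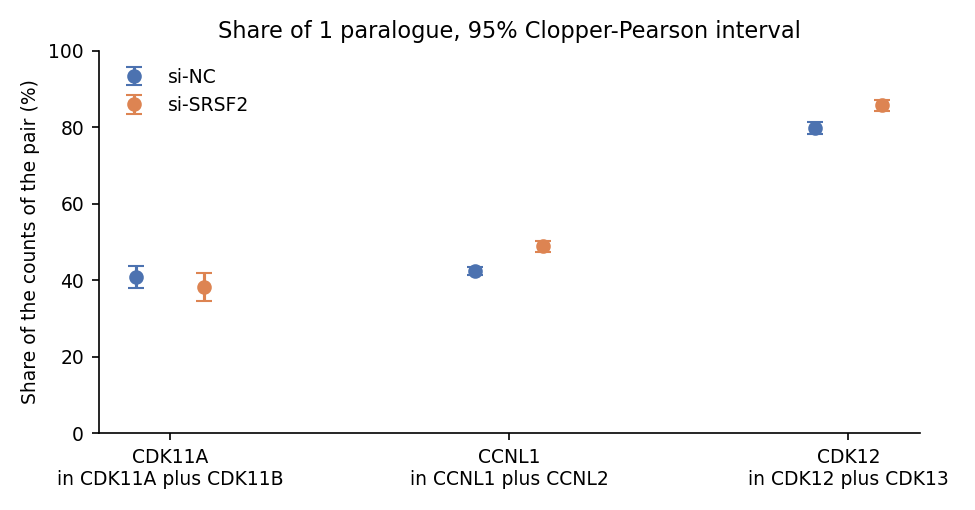
Share of the counts of a paralogue pair that fell on the named gene, in percent, with 1 point per library and 95% Clopper-Pearson intervals. The CCNL1 share (42.4% and 48.9%) and the CDK12 share (79.8% and 85.8%) were higher in si-SRSF2 with intervals apart, while those of the CDK11A share (40.9% and 38.1%) overlapped.

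CCNK, the cyclin that activates both CDK12 and CDK13, was close to CDK12 in its ratio. CCNK (ENSG00000090061.17, chromosome 14, 99481169 to 99535044, plus strand) had 1419 counts in si-NC against 1123 in si-SRSF2, or 71.2 and 77.4 CPM. Its log2 ratio was 0.12 (95% interval 0.01 to 0.23), above 77.9% of its 2687 genes of like level, of which 22.9% had an interval above 0. The difference to CDK12, CCNK minus CDK12, was -0.06 (95% interval -0.20 to 0.09), and that to CDK13 was 0.55 (95% interval 0.32 to 0.79). CCDC85C on the opposite strand shares 4893 exonic bases with CCNK. CCDC85C had 725 and 549 counts and a log2 ratio of 0.06 (95% interval -0.11 to 0.22). The library kit keeps strand, but the strand setting of the counting is not given in the sources used here, so reads of CCNK and CCDC85C cannot be told apart with certainty. Another annotated gene over CCNK, ENSG00000258749, shares 0 exonic bases with it.

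**Figure D3:**
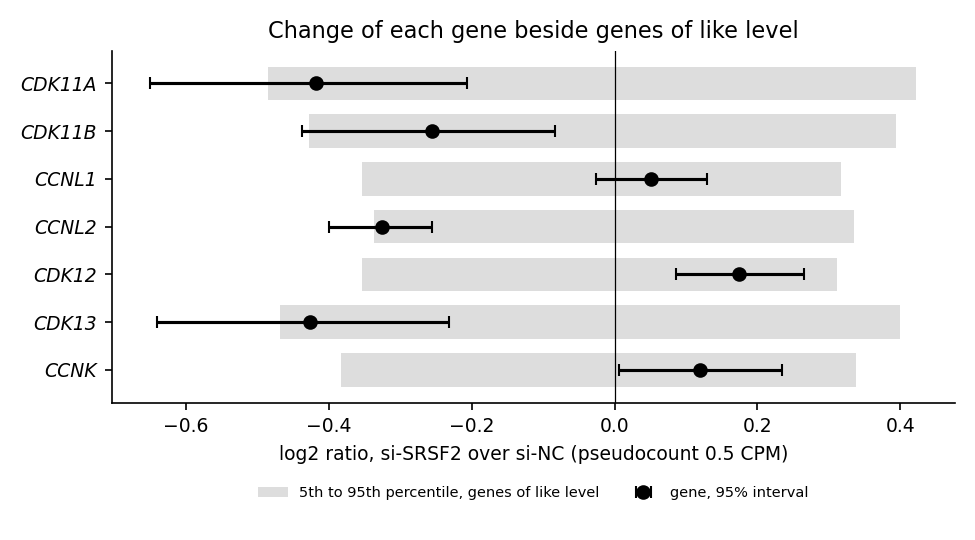
Log2 ratio of si-SRSF2 over si-NC for each of the 7 genes (points, with 95% Clopper-Pearson intervals) over a grey bar from the 5th to the 95th percentile of tested genes with a mean CPM within 1.5-fold. All 7 points lie inside their grey bar, with CCNL2 (-0.33), CDK13 (-0.43) and CDK11A (-0.42) nearest to its lower end.

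Levels were compared between genes only per kilobase of the canonical transcript, in CPM per kb. In si-NC the order was CCNL2 (68.0), CCNL1 (67.0), CCNK (20.2), CDK12 (13.6), CDK11B (11.7), CDK11A (8.10) and CDK13 (2.99). The counting intervals of CCNL2 and CCNL1 overlapped in si-NC, and those of no other neighbouring pair did. These intervals do not cover how reads common to the CDK11 genes were counted, so the places of CDK11A and CDK11B are uncertain. In si-SRSF2 the level of CCNL1 was 69.5 and that of CCNL2 54.2 CPM per kb, so these 2 changed places on this length, and the other 5 genes kept their order with CCNK at 22.0, CDK12 at 15.3, CDK11B at 9.76, CDK11A at 6.03 and CDK13 at 2.21. The L-type cyclins were highest and CDK13 lowest in both libraries also with the longest transcript or the union of exons as the length, while CCNK, CDK12 and CDK11B changed places among themselves with these lengths. With either of these lengths CCNL2 stayed above CCNL1 in si-SRSF2, at 37.9 over 33.6 CPM per kb for the longest transcript and 24.7 over 18.5 CPM per kb for the union of exons.

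In CPM per kb, the summed kinases CDK11A and CDK11B came to 0.147 of the summed cyclins CCNL1 and CCNL2 in si-NC and to 0.128 in si-SRSF2. CDK12 and CDK13 together came to 0.820 of CCNK in si-NC and to 0.799 in si-SRSF2. These are ratios of RNA levels and depend on the transcript length chosen: with the longest transcript the CDK12 and CDK13 sum came to 1.31 and 1.28 of CCNK, on the other side of 1. The CDK11A and CDK11B sum came to 0.248 and 0.221 of the L-type cyclins with the longest transcript, and to 0.303 and 0.276 with the union of exons. The level can also be taken per 1000 windows of 150 bases, leaving out windows that the other CDK11 gene holds. This would apply if reads common to both CDK11 genes had been dropped. CDK11A then came to 14.3 CPM in si-NC against 10.7 CPM in si-SRSF2, and CDK11B to 20.6 and 17.2 CPM. On this measure CDK12 came to 13.8 and 15.6 CPM, and CCNK to 21.1 and 22.9 CPM. CDK11B then stood above CDK12 in both libraries, and CDK11A stood above CDK12 in si-NC only.

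To place the 7 genes in their pathway, the other kinases and cyclins of transcription were examined. The counts of each list below are read against all tested genes, of which 21.0% had an interval above 0 and 26.7% below 0, a background that is not matched for level. Of 12 tested, the interval lay above 0 for 2 and below 0 for 3, shares close to this background, and the median log2 ratio was -0.07. CDK9, the kinase that releases paused RNA polymerase II, had 1699 and 1629 counts and a log2 ratio of 0.39 (95% interval 0.30 to 0.50). CDK7, the kinase of the general factor TFIIH, had 56 and 79 counts and a log2 ratio of 0.84 (95% interval 0.44 to 1.47). All 853 exonic 50-base windows of CDK7 also occurred on an alternate scaffold of the genome, which held for 0 windows of each of the 7 genes, and the part of this in the counts of CDK7 was not tested. The Mediator kinase CDK19 had 463 and 217 counts and a log2 ratio of -0.62 (95% interval -0.88 to -0.40), and CCNC, its cyclin, had 2246 and 1327 counts and a log2 ratio of -0.30 (95% interval -0.40 to -0.20).

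Of 8 tested cell cycle and other CDKs, the interval lay above 0 for 2 and below 0 for 5 (21.0% and 26.7% over all tested genes), with a median of -0.21. CDK16 (1646 and 1462 counts, 0.28) and CDK17 (4467 and 3552 counts, 0.13) had the highest log2 ratios. CDK5 (498 and 288 counts, -0.33) and CDK2, a kinase of the S phase (2830 and 1682 counts, -0.29), had the lowest. CDK3 had 0 counts in both libraries and CDK14 had 0 and 2.

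The kinases that phosphorylate SR proteins had a median of -0.09 over 7 tested genes, with the interval below 0 for 4 (26.7% over all tested genes) and above 0 for 0 (21.0%). CLK3 (1676 and 920 counts, -0.41) and CLK1 (8449 and 5301 counts, -0.21) had the lowest log2 ratios, and DYRK1A (1522 and 1124 counts, 0.02) and SRPK1 (5326 and 3873 counts, -0.0021) the highest. CLK2, with 25 and 7 counts, was under the filter, and all 1517 of its windows occurred on an alternate scaffold.

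Partners and substrates of CDK11 had a median of -0.03 over 12 tested genes, with the interval above 0 for 5 (21.0% over all tested genes) and below 0 for 3 (26.7%). SF3B1, the spliceosome subunit that CDK11 phosphorylates, had 9963 and 6004 counts and a log2 ratio of -0.27 (95% interval -0.32 to -0.23). The SR protein gene SRSF7 (2474 and 1480 counts, -0.28) had the lowest ratio. THOC7 (395 and 521 counts, 0.84) and THOC6 (959 and 888 counts, 0.34), subunits of the THO complex of messenger RNA export, had the highest. CSNK2B was listed with 0 counts in both libraries, and all 586 of its windows occurred on an alternate scaffold.

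On the polymerase side, the target of CDK12 and CDK13, POLR2A, the largest RNA polymerase II subunit, had 2549 and 2170 counts and a log2 ratio of 0.22 (95% interval 0.14 to 0.31). POLR2A was listed with 6 tail phosphatase genes and the elongation factor genes SUPT5H and SUPT6H. RPAP2 (507 and 433 counts, 0.23) had the highest and CTDP1 (211 and 124 counts, -0.29) and CTDSP1 (718 and 496 counts, -0.08) the lowest log2 ratios of these 9 genes. Their median was -0.05, with the interval above 0 for 2 (21.0% over all tested genes) and below 0 for 0 (26.7%). In the polymerase-associated factor complex, a platform for elongation, the median of 6 genes was -0.03, with the interval above 0 for 1 and below 0 for 3, beside the same 21.0% and 26.7%. RTF1 (2161 and 2129 counts, 0.43) and LEO1 (913 and 710 counts, 0.09) had the highest log2 ratios, and WDR61 (900 and 512 counts, -0.35) and PAF1 (882 and 576 counts, -0.16) the lowest.

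DNA repair genes known to need CDK12 for their expression had a median of -0.15 over 12 tested genes, with the interval below 0 for 7 and above 0 for 1 of the 12, against 26.7% and 21.0% of all tested genes. BLM, a DNA helicase, had 698 and 376 counts and a log2 ratio of -0.43 (95% interval -0.62 to -0.25). RAD51D (187 and 170 counts, 0.31) and ATM (3476 and 2658 counts, 0.07) had the highest log2 ratios of this list.

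**Figure D4:**
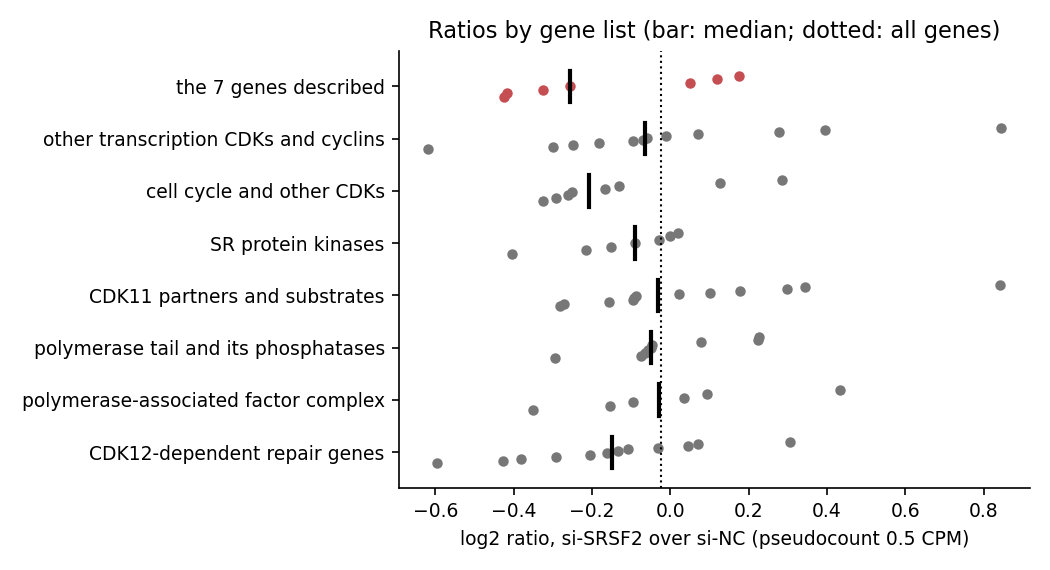
Log2 ratio of si-SRSF2 over si-NC for each tested gene of 8 gene lists, with 1 point per gene, a black bar at the list median and a dotted line at the median of all tested genes (-0.02). The 7 genes (red) have 4 points below 0 and 3 above, and the list medians run from -0.26 for these 7 genes to -0.03.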

How the data were processed

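RNA of RKO cells transfected with si-NC or si-SRSF2 was measured in 1 library per group. Per the study's methods, the libraries were stranded and poly(A)-based, read pairs from a run of 150 bases were cleaned of adaptors and low-quality reads, which can leave shorter reads, and aligned to GRCh38 with HISAT2 (version 2.0.4 in the submitters' processing notes), and genes were counted with HTSeq. The authors deposited raw counts per gene symbol without normalization. The counting mode for strand and for reads that align to several places is not given in the sources used here.

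CPM were computed with TMM factors from edgeR 4.0.16 under R 4.3.3. Log2 ratios used a pseudocount of 0.5 CPM and the 12620 genes whose mean reached 1 CPM. Intervals (95%, SciPy 1.17.1) and the limit of 3 counts (0.151 and 0.207 CPM in si-NC and si-SRSF2) cover counting error only, and how far transfections vary is unknown. No test was run with 1 library per group. The ratios and intervals were tested on simulated data. Sequences, transcript lengths and overlaps came from GRCh38 and GENCODE 44. The methods name Ensembl 100, while many listed symbols have the form that NCBI uses, so the counted gene models may differ from those behind the levels per kb and the overlaps. The siRNA sequences came from the study's list of oligonucleotides. The names CCNQ and SKIC8 were looked up under the older symbols FAM58A and WDR61.

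The 7 genes and the other lists were chosen with earlier results of these data known. The named genes were the 7, the genes annotated as overlapping them, the 2 tested genes with the highest and the 2 with the lowest log2 ratio of each other list, and the 3 genes nearest to CDK11B in ratio among genes within 1.5-fold of its level. Of these, 1 gene is not reported here. Others are said to be named after their values were seen, or stand beside a count or a low value that concerns them. The alternatives for scaling were upper-quartile factors, plain library totals, size factors from DESeq2 1.42.0, and TMM without mitochondrial genes and the 20 most abundant genes. The others were pseudocounts of 0.1 and 2 CPM, no filter, a minimum of 5 CPM, other transcript lengths and Wilson intervals.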

Additional observations from a re-analysis of the deposited data

How the results depend on the processing

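The log2 ratio of each of the 7 genes kept its sign under every scaling and pseudocount run. The ranges were -0.43 to -0.39 for CDK11A, -0.26 to -0.23 for CDK11B, 0.05 to 0.08 for CCNL1, -0.33 to -0.30 for CCNL2, 0.17 to 0.20 for CDK12, -0.43 to -0.40 for CDK13 and 0.12 to 0.14 for CCNK. All 120 recomputed ratios, list medians and shares stayed within the counting interval of the gene or share, or, for a median, of the gene nearest to it. Some of these could not move. The Wilson setting changed only the interval of a share, and a filter that left a list unchanged left its median unchanged. Over all tested genes, the 527 that were higher by 1.5-fold or more became 202 with a minimum of 5 CPM, 1262 without a filter and 254 with a pseudocount of 2 CPM. The 444 that were lower by that fold became 237, 837 and 220 under the same settings. With upper-quartile factors, 3020 genes had an interval above 0 and 2991 below 0, in place of 2646 and 3366, so more genes then lay above 0 than below. Of 14 levels per kb in si-NC with another transcript length, 10 moved beyond their counting interval.

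No paired analysis was possible because 1 library stands for each group, and leaving out a replicate was not possible for the same reason. Depth limits the CDK11 pair most: with 261 to 697 counts per gene, a difference between the ratios of CDK11A and CDK11B of the size seen lay within counting error. Variation between transfections, the split of reads common to the CDK11 genes and the inclusion of their alternative segment were not tested.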
